A study of Rattus norvegicus with 25 samples.

Results

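The metabotropic glutamate receptors examined here were Grm5 of group I, Grm2 and Grm3 of group II, and Grm4, Grm7 and Grm8 of group III, taken from both regional tables by their gene names. These were 6 of 26312 gene identifiers, with 1 identifier for each receptor. Bulk poly-A RNA had been sequenced from punches of the left basolateral amygdala (BLA) and the left dorsal dentate gyrus (DG) of adult male Sprague-Dawley rats, all wild type (WT). Control animals were labelled undisturbed and, per the study's methods, had only a cage change when the others were stressed, whereas stress-exposed animals underwent 3 h of immobilization together with predator scent (fox urine), and all groups went through the behavioral tests before tissue was taken on day 9. From the stress-exposed animals, those with the lowest and the highest composite scores of anxiety-like behavior were sequenced (stress-low, score 0 to 2, and stress-high, score 13 to 15), with controls scoring 0 to 6. The stress-exposed animals had been housed apart from the controls for a time after the stressor, so housing and stress cannot be told apart. Several punches of 0.75 mm were combined per animal, so each library was 1 animal and 1 region.

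Metabotropic glutamate receptors are G protein-coupled receptors that tune transmission at glutamate synapses. Group I receptors couple to Gq and phospholipase C and sit mostly around the postsynaptic density. Group II and group III receptors couple to Gi/o, lower cyclic AMP and act largely as presynaptic brakes on transmitter release, with Grm3 also made by glia. In the amygdala and the hippocampus these receptors are known for their part in synaptic plasticity and fear learning.

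The BLA set held 13 libraries (7 from control animals, 3 each from the stress groups) and the DG set 12 (6 and again 3 each). Expected counts summed to between 12709493 and 22801247 per BLA library and between 11656439 and 19477932 per DG library. Of the controls, 1 library per region was left out of the main set, namely the control farthest from the others on the first principal component, animal 2 in the BLA (46.4 against -17.3 to 12.5) and animal 35 in the DG (56.0 against -13.7 to 2.28). The BLA library of animal 35 carried a control name but a stress entry in its treatment field, and it was counted as a control. DG punches carried the granule cell marker Prox1 at 63.0 to 95.5 TPM (transcript abundance scaled for length and to a fixed sum per library) against 2.03 to 2.93 TPM in the BLA, and C1ql2, Trpc6, Rspo3 and Dsp of the same 7-gene list were also higher in the DG. The other members did not mark the DG, as Calb1 was at 80.8 to 127 TPM in the DG and 97.0 to 160 TPM in the BLA and Lct at or near 0 in both. No gene was called in any comparison by edgeR at an adjusted p under 0.05, and 302 to 972 genes per region and comparison had an unadjusted p under that threshold.

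All 6 receptors were expressed in both regions and in every library. As TPM is scaled for transcript length, levels of different receptors can be set against one another within a library, as far as their gene models are complete. These models ran from 1370 bases (Grm8) to 4580 bases (Grm2), and the part of their completeness in the order of levels was not tested. Because the tables of the regions were normalized separately, regional levels are set side by side without a test, and in bulk tissue fewer expressing cells and less RNA per cell cannot be told apart. In the BLA the order by mean level was Grm5 (55.1 ± 4.43 TPM, SD, n = 12), Grm3 (43.6 ± 5.01), Grm2 (36.1 ± 7.43), Grm7 (32.9 ± 3.47), Grm8 (28.0 ± 3.79) and Grm4 (15.8 ± 4.44). In the DG it was Grm5 (67.5 ± 4.74 TPM, SD, n = 11), Grm2 (56.6 ± 11.9), Grm7 (34.0 ± 2.29), Grm3 (21.8 ± 2.90), Grm4 (10.3 ± 2.63) and Grm8 (2.38 ± 0.409). Thus Grm5 led in both regions, whereas Grm8 stood between the other group III receptors, Grm7 and Grm4, in the BLA and far below all others in the DG.

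**Figure D1:**
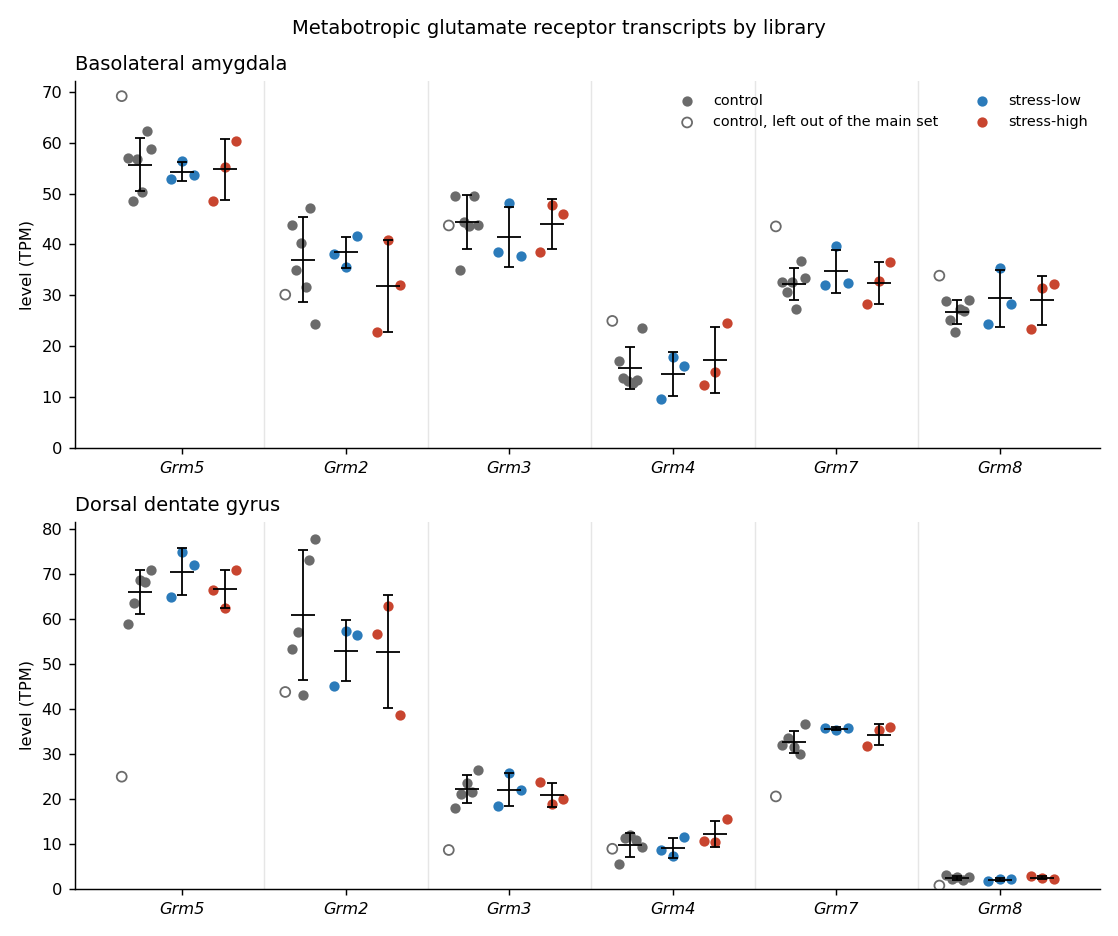
Level in TPM (vertical axis) of each receptor in every library of the BLA (top) and the DG (bottom), coloured by group, with black bars for the mean ± SD of the main libraries and open circles for the control library left out in each region. The 3 groups overlap for every receptor in both regions, and the left-out DG library lies below every other DG library for Grm3, Grm5, Grm7 and Grm8.

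Neighbors in this order were compared within libraries by an exact two-sided sign-flip permutation test on log2(TPM + 0.1), with p-values adjusted over the 10 neighboring pairs. The pairs and their direction were taken from the mean levels of these same libraries. The p-values therefore describe how steadily the order held across them. In the BLA, Grm5 exceeded Grm3 in 12 of 12 libraries (mean log2 difference 0.34 ± 0.11 SD, exact adjusted p = 0.00140). Grm3 exceeded Grm2 in 10 of 12 (0.29 ± 0.31, exact adjusted p = 0.00732), Grm7 exceeded Grm8 in 11 of 12 (0.24 ± 0.15, exact adjusted p = 0.00140), and Grm8 exceeded Grm4 in 12 of 12 (0.85 ± 0.29, exact adjusted p = 0.00140). Grm2 and Grm7 were the only neighbors whose difference did not pass this test (0.11 ± 0.30, higher Grm2 in 8 of 12 libraries, exact adjusted p = 0.229). In the DG, Grm5 exceeded Grm2 in 8 of 11 libraries (0.28 ± 0.32, exact adjusted p = 0.0152), which was lost when the left-out library was returned (0.19, exact adjusted p = 0.182). Each of the other DG steps held in 11 of 11 libraries (exact adjusted p = 0.00140), and the ranges of those neighbors did not overlap. The DG steps from Grm3 to Grm4 (1.11 ± 0.42) and from Grm4 to Grm8 (2.04 ± 0.51) were the largest of all.

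Grm5, the main group I receptor of the forebrain, was the most even of the family relative to its level in the BLA, with a coefficient of variation of 8.04% over the main libraries against a median of 11.8% over 14421 genes. In the BLA it was at 48.5 TPM in the lowest control, 56.9 at the control median and 62.2 in the highest control. The stress-low libraries were at 52.8, 56.4 and 53.7 TPM, and the stress-high libraries at 48.6, 55.2 and 60.4 TPM. Every BLA stress library therefore lay within the control range. In the DG the 5 controls were at 58.9, 63.6, 68.7, 68.2 and 71.1 TPM, the stress-low libraries at 64.9, 74.9 and 72.1 TPM and the stress-high libraries at 66.6, 62.4 and 71.0 TPM. Although both of the highest DG values came from stress-low animals, the groups overlapped. Relative to control, stress-low animals differed by 0.11 on the log2 scale in the DG (SE 0.06, 95% interval -0.03 to 0.25, edgeR unadjusted p = 0.117) and by -0.07 in the BLA (SE 0.06, -0.20 to 0.06, unadjusted p = 0.261). This contrast between regions was the largest among the receptors relative to its error, at 0.17 (SE 0.09, edgeR unadjusted p = 0.0711, adjusted p = 0.9999), and was not called. It fell to 0.06 (SE 0.09, unadjusted p = 0.512) when the animal was a block.

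Grm2, a presynaptic group II receptor, was one of the more variable members, with a coefficient of variation of 20.6% in the BLA and 21.0% in the DG, where the median over 13565 genes was 10.2%. BLA controls ran from 24.4 TPM through a median of 37.7 to 47.1 TPM. The stress-low libraries were at 38.1, 35.5 and 41.7 TPM and the stress-high libraries at 22.7, 40.8 and 32.1 TPM. The lowest BLA value was a stress-high animal and the next lowest a control, so that the groups overlapped. DG controls were at 53.4, 57.2, 43.1, 73.3 and 77.9 TPM, stress-low libraries at 45.3, 57.3 and 56.5 TPM, and stress-high libraries at 56.7, 62.9 and 38.8 TPM. Both of the highest DG values were controls, and the remaining controls lay among the stress animals. Stress-high against control gave -0.22 in the BLA (SE 0.18, 95% interval -0.60 to 0.16) and -0.18 in the DG (SE 0.19, -0.59 to 0.22), with edgeR unadjusted p of 0.239 and 0.347. The lowest BLA control was animal 35, whose treatment field carried a stress entry. Without it the BLA value was -0.31 (SE 0.15, edgeR unadjusted p = 0.0621). Without stress-high animal 7, the lowest BLA library, it was -0.063 (SE 0.19, edgeR unadjusted p = 0.746). Leaving out each library in turn moved this value over -0.457 to -0.0634. In the DG the control with the most Grm2, animal 32, also had the highest summed level of the 7 granule cell markers (822 TPM against 513 to 673 in the other main libraries). The same library was the highest of the main DG set for Grm3 and Grm7 too. Over the main DG libraries, Pearson's r with this sum ran from -0.117 (Grm4) through 0.699 (Grm3) to 0.763 (Grm2) (log2 levels, group means removed). The part of these cells in the spread of Grm2 was not tested.

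Grm3, the group II receptor also found on astrocytes and other glia, was at 35.0 TPM in the lowest BLA control, 44.2 at the control median and 49.6 in the highest. The BLA stress-low libraries were at 38.5, 48.2 and 37.7 TPM and the stress-high libraries at 38.5, 47.7 and 46.0 TPM. All BLA stress libraries again lay within the control range. The DG controls were at 17.9, 21.2, 23.7, 21.7 and 26.4 TPM, the stress-low libraries at 18.6, 25.9 and 21.9 TPM and the stress-high libraries at 23.8, 18.8 and 19.9 TPM. These too stayed inside the control range. Grm3 was thus lower by TPM in every DG library than in any BLA library. The estimate farthest from 0 for Grm3 was stress-low against control in the BLA, -0.14 (SE 0.09, 95% interval -0.34 to 0.06, edgeR unadjusted p = 0.161). In the BLA the library with the least Grm3, control animal 17, also had the lowest sum of the 7 oligodendrocyte markers (2422 TPM, others 2748 to 4398). Over the main BLA libraries, Pearson's r with this sum was 0.765 for Grm3, 0.679 for Grm8 and 0.571 for Grm7 (log2 levels, group means removed). Grm3 had r = 0.781 with the oligodendrocyte progenitor sum and 0.357 with the astrocyte sum. In the DG its r with the oligodendrocyte sum was -0.0268. The part of these cells was not tested.

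Grm4, a group III receptor known from striatal and cerebellar terminals, varied most of the 6 in both regions, with coefficients of variation of 28.1% in the BLA and 25.6% in the DG. In the BLA the controls were at 12.9 TPM at the lowest, 13.6 at the median and 23.5 at the highest, where the highest was animal 35. The stress-low libraries were at 9.75, 17.8 and 16.1 TPM and the stress-high libraries at 12.4, 14.9 and 24.6 TPM. 1 control and 1 stress-high animal thus stood well above the rest, and a stress-low animal was the lowest. The high control, animal 35, was the one with a stress entry in its treatment field. Without it, edgeR log2 differences from control in the BLA were 0.273 for stress-high and 0.0158 for stress-low animals. In the main fit they were 0.113 and -0.142. DG controls were at 5.49, 11.3, 12.0, 10.9 and 9.27 TPM, stress-low libraries at 8.68, 7.25 and 11.5 TPM, and stress-high libraries at 10.6, 10.4 and 15.5 TPM. The highest DG value belonged to stress-high animal 20, which was also the highest main BLA library, while the lowest was a control. The estimates for stress-high animals in the DG were the largest of the family, 0.43 over stress-low (SE 0.24, 95% interval -0.10 to 0.95, edgeR unadjusted p = 0.104) and 0.32 over control (SE 0.21, -0.14 to 0.78, unadjusted p = 0.153), and neither was called. These intervals reach up to 1.94-fold and 1.72-fold.

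Markers of the striatum and the central amygdala, which border the BLA, are given beside Grm4, as both varied widely in that region. All 7 markers of the list were detected, and their summed level ran from 279 to 857 TPM in controls, 275 to 836 in stress-low and 383 to 474 in stress-high libraries of the main set. The lowest sum was in stress-low animal 22, which had the least Grm4, and the highest in control animal 35, which had 23.5 TPM of Grm4. Over the 12 main BLA libraries, Pearson's r between Grm4 and this sum was 0.776 (log2 levels, group means removed). The next highest r of Grm4 among the marker lists was 0.752, for the leptomeninges and choroid plexus. Not every library kept to the order of the sums. Stress-high animal 20 had the most Grm4 of the main set (24.6 TPM) at a sum of 474 TPM, stress-low animal 30 had 17.8 TPM at a sum of 836 TPM, and stress-high animal 7 had 12.4 TPM at a sum of 455 TPM. The left-out BLA library of animal 2 had both the highest sum (1692 TPM) and the highest Grm4 level (25.0 TPM). The defining markers Drd2 (1.82 to 14.4 TPM) and Adora2a (1.65 to 27.8 TPM) were low yet detected throughout the main BLA libraries. Penk, at 170 to 645 TPM, was the highest of the 7 markers, so the sum weighs Penk most. Ppp1r1b was next at 42.7 to 123 TPM, while Prkcd varied little, at 9.97 to 15.5 TPM. The part of neighboring tissue in the Grm4 values was not tested.

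Grm7, the group III receptor of the presynaptic active zone, was at nearly the same level in both regions. BLA controls ran from 27.3 TPM through a median of 32.7 to 36.7 TPM. The stress-low libraries were at 32.1, 39.7 and 32.5 TPM and the stress-high libraries at 28.2, 32.7 and 36.5 TPM. Stress-low animal 30 was above every main BLA control, though below the left-out control animal 2 (43.5 TPM), and the other libraries interleaved. DG controls were at 32.0, 33.5, 31.5, 30.0 and 36.6 TPM, the stress-low libraries at 35.9, 35.3 and 35.9 TPM and the stress-high libraries at 31.8, 35.3 and 36.0 TPM. All 3 stress-low libraries were above 4 of the 5 controls and below the other. Accordingly, stress-low against control in the DG gave the smallest unadjusted p of all 36 receptor tests within regions, 0.14 (SE 0.07, 95% interval -0.02 to 0.29, edgeR unadjusted p = 0.0750, adjusted p = 0.740).

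Grm8, another group III receptor of presynaptic terminals, was the member with the plainest regional contrast. BLA controls were at 22.8 TPM at the lowest, 27.2 at the median and 29.0 at the highest. The stress-low libraries were at 24.4, 35.5 and 28.4 TPM and the stress-high libraries at 23.5, 31.5 and 32.2 TPM. The 3 highest main BLA libraries were stress-exposed, 1 stress-low and 2 stress-high, while the other stress animals lay among the controls. DG controls were at 3.00, 2.14, 2.72, 1.94 and 2.69 TPM, the stress-low libraries at 1.68, 2.28 and 2.17 TPM and the stress-high libraries at 2.87, 2.46 and 2.19 TPM. These DG values rested on 18 to 35 expected counts per library, against 277 to 625 in the BLA. The gene model of Grm8 was also the shortest of the family, 1370 bases against 2507 to 4580 for the others. At this depth the DG intervals were wide, from -0.77 to 0.21 for stress-low against control and from -0.23 to 0.84 for stress-high against stress-low. The latter interval ran from 0.85-fold to 1.79-fold and so included no difference.

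The make-up of the family differed accordingly between the tables. The 6 receptors summed to 211 ± 20.1 TPM in the BLA (SD, n = 12) and 192 ± 15.3 TPM in the DG (SD, n = 11). Group I, here Grm5, made up 26.1 ± 1.16% of that sum in the BLA and 35.2 ± 2.31% in the DG. Group II made up 37.6 ± 2.89% and 40.5 ± 4.25%, and group III 36.3 ± 2.76% and 24.3 ± 2.38%. Within group II the leading receptor changed, as Grm3 held 20.6 ± 1.39% and Grm2 17.0 ± 2.96% in the BLA, whereas Grm2 held 29.2 ± 4.44% and Grm3 11.3 ± 1.05% in the DG. Grm8 went from 13.2 ± 1.22% in the BLA to 1.24 ± 0.249% in the DG. The lowest BLA share of Grm8 was 10.8% and the highest DG share 1.76%.

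**Figure D2:**
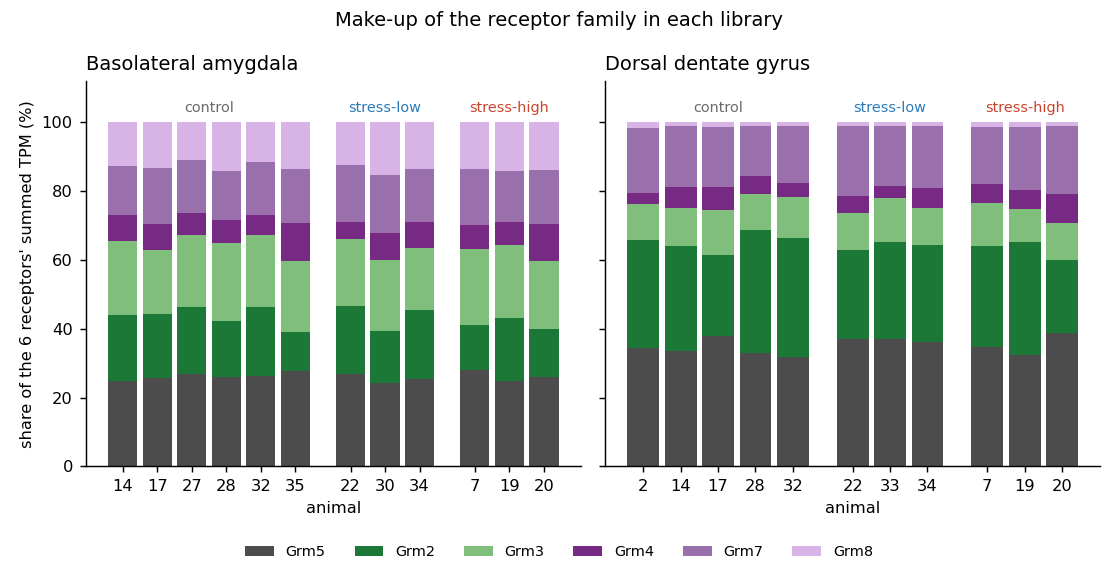
Share of each receptor in the summed TPM of the 6 receptors (vertical axis, percent) in each main library, with animals along the horizontal axis and ordered by group. Grm8 forms a band of 10.8% to 15.2% in every BLA library and at most 1.76% in every DG library, with no step between the groups.

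To ask whether the receptors differed with stress exposure or with its behavioral outcome, the 3 groups were compared within each region. None of the 6 receptors was called at an adjusted p under 0.05 in stress-low versus stress-high, control versus stress-low or control versus stress-high, in the BLA or the DG (edgeR, lowest adjusted p = 0.740), where 0.0% of all tested genes were called in each. At an unadjusted p under 0.05 the count was 0 of 6 in every comparison as well. Over all genes of the BLA that share was 1.98%, 2.75% and 2.57% for the comparisons in this order, and over all genes of the DG 3.12%, 6.9% and 2.19%. No receptor separated any pair of groups without overlap. Over all genes with a mean of at least 0.5 TPM, groups did not overlap for 6.11%, 1.39% and 1.02% of genes in the BLA and for 8.57%, 3.68% and 1.55% in the DG. Exact two-sided permutation tests of the TPM values gave p of 0.125 or above, where the smallest p that 3 against 3 libraries allow is 0.1, 6 against 3 allow 0.0119 and 5 against 3 allow 0.0179.

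**Figure D3:**
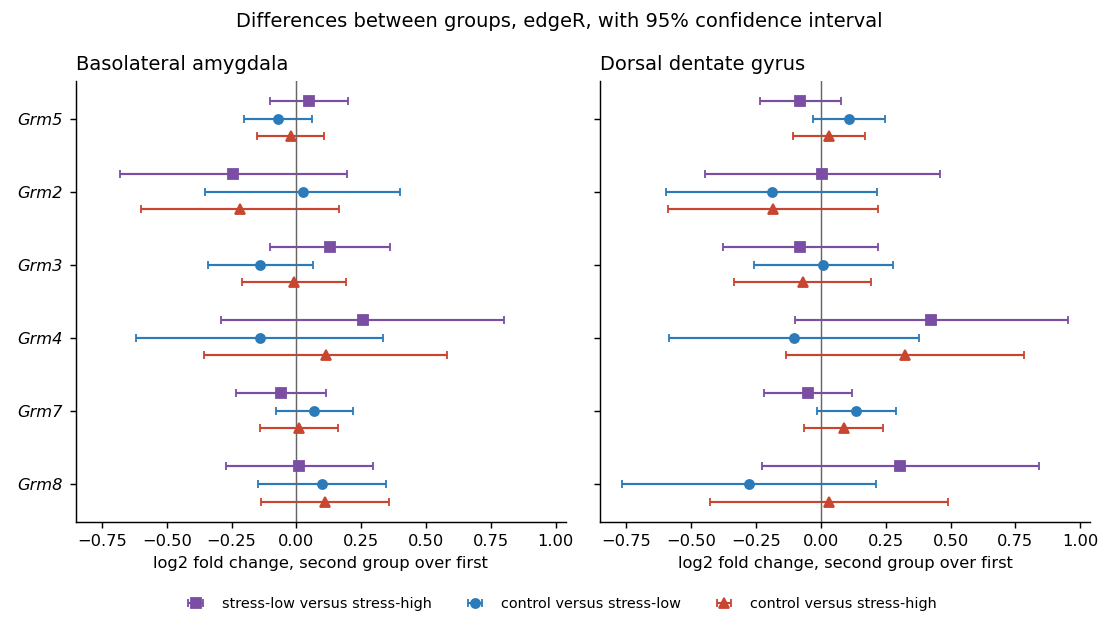
Log2 fold change with its 95% confidence interval (horizontal axis, second named group over first) for each receptor and comparison in the BLA (left) and the DG (right), from edgeR. Every interval includes 0, and Grm5 and Grm7 have the narrowest while Grm4, Grm2 and the DG values of Grm8 have the widest.

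The intervals bound how large a difference could have gone unseen. Standard errors ran from 0.06 for Grm5 in the BLA to 0.25 for Grm4 in the BLA. For stress-high over stress-low in the BLA, the interval for Grm5 was 0.93-fold to 1.15-fold and that for Grm7 0.85-fold to 1.08-fold, whereas that for Grm4 was 0.82-fold to 1.74-fold. In the DG the same comparison gave 0.85-fold to 1.06-fold for Grm5, 0.86-fold to 1.09-fold for Grm7 and 0.93-fold to 1.94-fold for Grm4. Larger changes than these in Grm5 and Grm7 lay outside the intervals. Whether a comparison differed between the regions was tested by a contrast over both regions at once. Again 0 of 6 receptors were called in any of these (0.0% of 15453 genes), and 0 had an unadjusted p under 0.05, against 2.0%, 3.21% and 1.84% of all genes.

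The level of a receptor also differed between individual animals, and for 9 animals the main set held both regions. After removal of group means within each region, Grm7 deviated in the same direction in BLA and DG (Pearson r = 0.920, Spearman rho = 0.933, exact permutation p = 0.000507, adjusted over the 6 receptors 0.00304 for r and 0.00450 for rho). Without the 2 animals farthest from the BLA median, r was 0.897, and leaving out each animal in turn gave 0.880 to 0.935 with adjusted p of 0.0409 or below. Animals 28 and 7, at 27.3 and 28.2 TPM the lowest in the BLA, had 30.0 and 31.8 TPM in the DG. Animals 32 and 20, at 36.7 and 36.5 TPM the highest in the BLA among these 9, had 36.6 and 36.0 TPM in the DG. Among 12572 genes with at least 1 TPM in both regions, 0.398% had an r at or above that of Grm7, and the median r was 0.182. Without removal of group means r was 0.870 (adjusted permutation p = 0.00423). The relation did not hold with all libraries. With animals 2 and 35 included it fell to r = 0.239 over 11 animals (permutation p = 0.456, adjusted p = 0.927), as the BLA library of animal 2 was the highest in Grm7 (43.5 TPM) and the DG library of animal 35 the lowest (20.6 TPM). As 9 animals were spread over 3 groups, r within each group could not be given.

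Grm4 had the next highest r between regions, 0.704 (Spearman rho = 0.783, exact permutation p = 0.0334 and 0.0172, adjusted p = 0.1001 and 0.0517), and did not pass after adjustment. Without the 2 animals farthest from the BLA median it was 0.645. It rose to 0.884 without removal of group means (adjusted p = 0.0138) and turned to -0.164 with animals 2 and 35 included. For the other receptors r was 0.200 (Grm2), -0.148 (Grm3), 0.187 (Grm5) and -0.323 (Grm8), none with an unadjusted exact permutation p under 0.05.

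**Figure D4:**
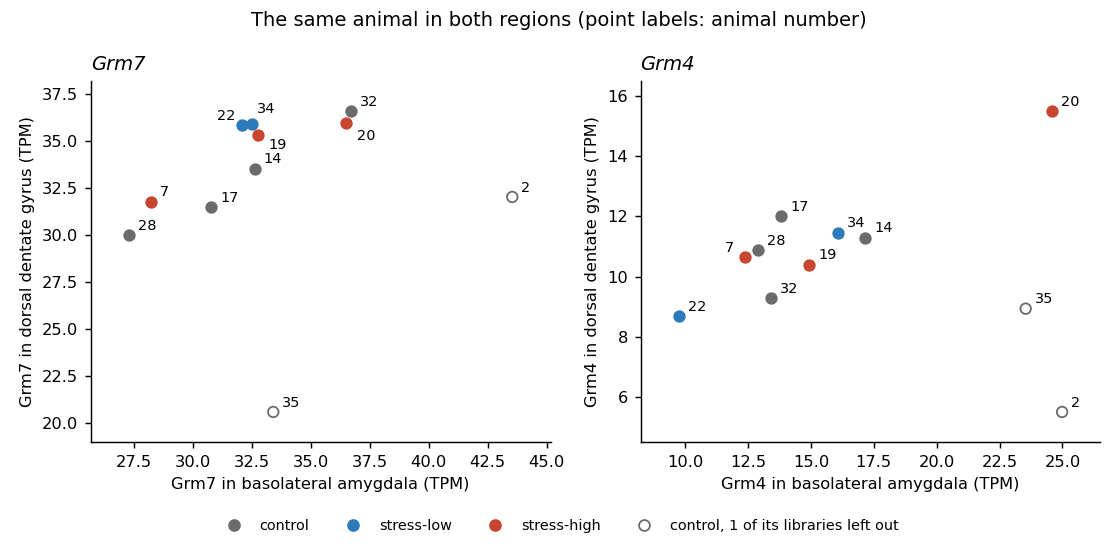
Level of Grm7 (left) and Grm4 (right) in TPM in the BLA (horizontal axis) and the DG (vertical axis) of the same animal, with animal numbers beside the points, colours for the groups and open circles for the controls with a library left out. For Grm7 the 9 filled points rise together from animal 28 (27.3 and 30.0 TPM) to animal 32 (36.7 and 36.6 TPM), with animals 2 and 35 far from them.

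Receptors also varied together across the libraries of a region. Over the 12 main BLA libraries, with group means removed, 14 of the 15 receptor pairs had a positive r and the median r was 0.567. Of the 30 pairs in both regions, 3 in the BLA and 1 in the DG passed a permutation test with 100000 resamples after adjustment. In the BLA these were Grm5 with Grm7 (r = 0.860, rho = 0.874, adjusted permutation p = 0.0162 and 0.0123), Grm3 with Grm5 (r = 0.768, rho = 0.804, adjusted permutation p = 0.0336 and 0.0373) and Grm4 with Grm8 (r = 0.753, rho = 0.741, adjusted permutation p = 0.0408 and 0.0590). Without the 2 libraries farthest from the median of the first receptor, r was 0.925, 0.698 and 0.776. In the DG the pair was Grm3 with Grm5 (r = 0.815, rho = 0.745, adjusted permutation p = 0.0336 and 0.0692), with r = 0.677 without the 2 farthest libraries. DG pairs had a median r of 0.0945 and 12 of 15 were positive. Each point is 1 library, so the receptors of a pair share its depth and tissue make-up. For scale, 2.09% of 13265 other genes in the BLA had an r with Grm5 at or above that of Grm7, and 8.35% had one at or above that of Grm3. When group means were kept, no pair passed by Pearson's r, while the same 3 BLA pairs passed by Spearman's rho (adjusted permutation p = 0.0240, 0.0497 and 0.0240 in the order above). By Pearson's r, 6 pairs per region passed when the left-out library was returned. In the DG only Grm3 with Grm5 then also passed by Spearman's rho (adjusted permutation p = 0.00820). Grm3 with Grm7 in the DG had r = 0.839 but rho = 0.259, and r was -0.159 without the 2 libraries farthest from the Grm3 median.

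Grm5 and Grm7 gave the highest r among the receptors in the BLA (0.860), while in the DG the r of this pair was 0.150. The 250 bases before their annotated starts are therefore shown. They are from RefSeq on build GRCr8, which is not the build of the expression files. RefSeq promoters were matched for 3 of the 6 receptors. Capitals mark the GC box GGGCGG on either strand.
Grm5, chr1:150733503-150733752, plus strand: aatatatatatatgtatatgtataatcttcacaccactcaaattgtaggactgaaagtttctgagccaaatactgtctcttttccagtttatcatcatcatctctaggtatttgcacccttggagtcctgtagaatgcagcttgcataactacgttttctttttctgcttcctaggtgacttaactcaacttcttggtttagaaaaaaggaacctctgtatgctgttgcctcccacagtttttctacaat
Grm7, chr4:145286476-145286725, plus strand: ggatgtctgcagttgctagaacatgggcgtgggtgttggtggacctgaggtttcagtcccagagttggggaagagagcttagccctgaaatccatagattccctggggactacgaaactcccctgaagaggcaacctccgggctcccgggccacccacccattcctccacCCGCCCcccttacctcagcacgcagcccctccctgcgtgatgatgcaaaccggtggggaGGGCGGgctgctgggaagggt
The window of Grm7 held 2 GC boxes and 62.0% G or C, whereas that of Grm5 held none and 36.4%. A GC box was present in 30.5% of 33469 rat windows of this length. Neither window held TATAAA (12.9% of windows), CCAAT (34% of windows) or TGACGTCA (1.59% of windows), searched on both strands. These letters are a description of the annotated starts and were not tested for binding.

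The gene most like each receptor across libraries was found by Pearson's r, with group means removed, over genes with a mean of at least 1 TPM, as a description. Each r is the highest of a search over all these genes, so a high value comes with the search itself. In the BLA (12 libraries, 13266 genes) it was Sgcz for Grm2 (r = 0.945), Spg11 for Grm3 (0.968), Acot11 for Grm4 (0.947), Ppp1r9a for Grm5 (0.975), Fat1 for Grm7 (0.970) and Skap1 for Grm8 (0.973). In the DG (11 libraries, 12888 genes) it was Sarnp for Grm2 (0.931), Ocrl for Grm3 (0.972), Slc36a4 for Grm4 (0.962), Ptprd for Grm5 (0.974), Tmem204 for Grm7 (0.948) and Metrnl for Grm8 (0.932). No receptor had the same gene in both regions. Sgcz (0.64 to 1.90 TPM) and Skap1 (0.39 to 2.11 TPM) were at low levels in the BLA.

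Lists of the receptors' pathway covered the Gq arm, the Gi/o arm, scaffolds and partners, glutamate supply and uptake, and the metabolism of N-acetylaspartylglutamate (NAAG, a peptide ligand of Grm3). Of 74 listed genes, 71 were tested in the BLA and 70 in the DG, and none was called by edgeR at an adjusted p under 0.05 in any comparison. At an unadjusted p under 0.05 the BLA counts were 0, 3 and 2 genes for stress-low versus stress-high, control versus stress-low and control versus stress-high, all lower in the stress group and all in glutamate supply and uptake, with Slc7a11 counted in both comparisons with controls. DG counts were 5, 11 and 0 genes. The 11 of control versus stress-low made up 15.7% of the genes tested, against 6.9% of all genes, with 6 higher and 5 lower in stress-low animals. By direction, the shares of all genes in the BLA were 0.998% higher and 0.985% lower for stress-high against stress-low, 1.16% and 1.6% for stress-low against control, and 1.16% and 1.42% for stress-high against control. The same shares for the DG were 1.73% and 1.4%, 3.88% and 3.03%, and 1.07% and 1.12%.

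None of the genes named next passed adjustment. In the BLA, Slc1a2, the main astrocytic glutamate transporter, was at 514 ± 44.6 TPM in controls (SD, n = 6) and 444 ± 50.7 TPM in stress-low animals (SD, n = 3), a log2 difference of -0.25 (SE 0.07, edgeR unadjusted p = 0.00187, adjusted p = 0.9998). Slc7a11, the cystine and glutamate exchanger whose released glutamate can reach group II receptors, was at 28.4 ± 3.31 TPM in controls, 23.8 ± 0.779 TPM in stress-low and 23.6 ± 1.57 TPM in stress-high animals. Both stress groups lay below every main control, at 23.2 to 24.7 and 21.8 to 24.8 TPM against 25.5 to 33.7 TPM, with log2 differences of -0.29 (SE 0.08) and -0.26 (SE 0.08) and edgeR unadjusted p of 0.00297 and 0.00608. These comparisons share their controls. Its partner subunit Slc3a2 was at 105 ± 7.99 TPM in controls and 94.7 ± 4.03 TPM in stress-high animals (-0.14, SE 0.06, edgeR unadjusted p = 0.0323).

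In the DG, Grasp, a scaffold that binds group I receptors, was at 42.8 ± 6.06 TPM in controls (SD, n = 5), 34.8 ± 2.62 TPM in stress-low (SD, n = 3) and 42.0 ± 2.65 TPM in stress-high animals. Its log2 difference was -0.29 for stress-low against control animals (SE 0.11, edgeR unadjusted p = 0.0188) and 0.28 for stress-high against stress-low animals (SE 0.12, unadjusted p = 0.0324), comparisons that share the stress-low libraries. Slc17a5, a vesicular carrier of NAAG, had the opposite order, at 21.1 ± 1.74, 24.6 ± 2.81 and 20.2 ± 0.509 TPM in these groups in the same order (0.24 and -0.27, edgeR unadjusted p = 0.0130 and 0.0108). Aspa, which splits N-acetylaspartate, was at 4.98 ± 0.749 TPM in controls and 6.65 ± 0.229 TPM in stress-low animals without overlap (0.43, SE 0.19, edgeR unadjusted p = 0.0384). Gna11, a Gq family alpha subunit, was at 110 ± 7.74 and 98.4 ± 4.90 TPM in the same groups (-0.15, SE 0.06, unadjusted p = 0.0258), and Fmr1, whose protein restrains translation set off by group I receptors, was at 15.6 ± 1.13 and 18.5 ± 1.83 TPM (0.26, SE 0.10, unadjusted p = 0.0169). Between the stress groups, Adcy8, a calcium-stimulated adenylyl cyclase, was at 8.64 ± 1.98 TPM in stress-low and 6.11 ± 0.279 TPM in stress-high animals (-0.51, SE 0.21, edgeR unadjusted p = 0.0338). Elfn2, a synaptic adhesion protein that binds group III receptors across the cleft, was at 71.1 ± 5.12 and 79.0 ± 3.79 TPM (0.16, SE 0.07, edgeR unadjusted p = 0.0363), and Slc7a11 at 14.0 ± 1.78 and 12.3 ± 0.938 TPM (-0.18, SE 0.09, unadjusted p = 0.0492).

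Partners of the receptors, chosen here after their values were seen, also had unlike levels in the tables, set side by side without a test. Among the Homer scaffolds, which hold group I receptors at the postsynaptic density, Homer1 was at 50.1 ± 3.46 TPM in the BLA and 21.4 ± 1.81 TPM in the DG. Homer3 went the other way, at 7.74 ± 1.01 TPM in the BLA and 80.5 ± 14.3 TPM in the DG. Ncdn, which binds Grm5, was at 514 ± 56.6 and 2030 ± 134 TPM. Elfn1, a partner of group III receptors, was at 21.9 ± 3.75 TPM in the BLA and 21.9 ± 3.60 TPM in the DG, alike in mean while Grm8 was not.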

How the data were processed

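The 25 libraries of poly-A RNA came from 14 animals. Per the labels and methods, reads were mapped by the authors to Rn5 using STAR 2.6.0a, with annotation from Ensembl build 75, and quantified using RSEM 1.3.1. The deposited tables hold an expected count and a TPM value per gene and library, unfiltered. The members and lists were chosen with earlier results of these data known. Groups and animal numbers came from the labels; BLA animal 35 was taken as control by its library name and its DG library. The study left out a control library in each region without giving its number, as outliers by principal components (the DG sample was re-extracted after low RNA quality); here the control farthest from the median on the first principal component was left out per region (animals 2 and 35).

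The main test was the quasi-likelihood F-test of edgeR 4.0.16 on expected counts rounded to whole numbers (3 group means per region, TMM, a filterByExpr minimum count of 10, 15230 BLA and 14080 DG genes, Benjamini-Hochberg over all tested genes). Region differences used 1 fit with 6 means; animals shared by the regions (9 in the main set) pair those libraries, by the animal number in the labels, and an animal block was an alternative. Levels used TPM, with log2(TPM + 0.1) for order and correlation and exact permutation tests (SciPy 1.17.1). Genes named were all 6 receptors, per pathway list and comparison up to 2 genes with the smallest unadjusted p under 0.05, and the gene most like each receptor. 1 gene that this rule names is not reported here. Alternatives were DESeq2 1.42.0, limma 3.58.1 on log2 TPM, RLE factors, no filter, only the 2 groups, all libraries, replicate blocks and leaving out each library. Labels do not say that reads were counted by strand. Effective lengths were 50.0 bases under length in the BLA and 250.0 to 274.3 in the DG, so the deposited TPM of the tables rest on different effective lengths.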

Additional observations from a re-analysis of the deposited data

Results flagged for a closer look

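The receptors were checked in each control group, with and without the left-out library, for a library standing apart by Dixon's test, which picks out about 1 in 20 groups by chance. Of 24 checks 2 did so, both with all libraries. Control animal 17 was low in BLA Grm3, at 34.99 TPM against 43.7 to 49.6 TPM in the other 6 controls. Control animal 35, which is left out of the main set, was low in DG Grm5, at 24.97 TPM against 58.9 to 71.1 TPM in the other 5.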

How the results depend on the processing

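No receptor was called under any alternative in any comparison (136 of 136 counts at 0, lowest adjusted p = 0.384), DESeq2 and limma included. An unadjusted p under 0.05 appeared in the DG for Grm4 between the stress groups when only those were fitted (0.0478), and otherwise only with a library left out, lowest for Grm2 in BLA control versus stress-high without animal 19 (-0.457, edgeR unadjusted p = 0.0249). Of 816 fold changes under the alternatives, 748 kept their direction, and 68 changed it, in 24 of 54 results, all of them uncalled. The cause was not tested.

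The replicate numbers of the titles did not pair the samples within a region (correlations of same-numbered libraries -0.047 to 0.066 in the BLA and -0.186 to 0.083 in the DG). Under the replicate block the number of receptors called stayed 0, and these log2 fold changes turned: 0.0143 (Grm4) and -0.0592 (Grm2) for BLA control versus stress-low, 0.00117 (Grm5) for BLA control versus stress-high and -0.00601 (Grm3) for DG control versus stress-low. With the animal as a replicate block, these region differences turned: -0.121 (Grm4) and -0.0523 (Grm7) for stress-low versus stress-high, and -0.0358 (Grm4) and 0.0269 (Grm8) for control versus stress-high. It changed no call.

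With all libraries, 5 log2 fold changes turned: 0.0203 (Grm3) and -0.0279 (Grm7) for BLA and 0.0658 (Grm3) for DG control versus stress-high, and 0.0437 (Grm3) and 0.0989 (Grm8) for its region difference. TPM differences turned to -1.37 (Grm7, BLA control versus stress-high), 2.20 (Grm3, DG control versus stress-low) and 0.927 (Grm3, DG control versus stress-high). Grm5 over Grm2 in the DG fell to 0.189, and the same-animal r to 0.239 (Grm7), -0.164 (Grm4) and -0.148 (Grm5). By Pearson's r, 6 pairs covaried in the BLA and 6 in the DG, where only Grm3 with Grm5 also did so by Spearman's rho. Without removal of group means, which like leaving out animals was chosen here after seeing the data for the same-animal relation, 0 and 0 pairs did by Pearson's r (by Spearman's rho 3 BLA pairs passed, adjusted permutation p = 0.0240, 0.0240 and 0.0497), and the same-animal r of Grm4 was 0.884. With limma, values turned to -0.0139 (Grm8, BLA stress-low versus stress-high), -0.0269 (Grm2, DG stress-low versus stress-high) and -0.00477 (Grm3, DG control versus stress-low) at a pseudocount of 1, with or without a filter, and to -0.0143, -0.0277 and -0.00503 at 0.1.

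Leaving out each library turned uncalled log2 fold changes within these ranges. For BLA control versus stress-low they were -0.0719 to 0.115 (Grm2), -0.266 to 0.0615 (Grm4) and -0.0154 to 0.202 (Grm8). For BLA control versus stress-high they were -0.0860 to 0.0276 (Grm3), -0.133 to 0.273 (Grm4), -0.0457 to 0.00350 (Grm5) and -0.0168 to 0.0476 (Grm7). For BLA stress-low versus stress-high they were -0.104 to 0.00269 (Grm7) and -0.0933 to 0.124 (Grm8). For DG control versus stress-low they were -0.119 to 0.119 (Grm3) and -0.286 to 0.0390 (Grm4). For DG control versus stress-high they were -0.341 to 0.0112 (Grm2), -0.0104 to 0.0630 (Grm5) and -0.0888 to 0.136 (Grm8). For DG stress-low versus stress-high they were -0.150 to 0.200 (Grm2) and -0.204 to 0.0466 (Grm3). For the region differences they were -0.120 to 0.276 (Grm2), -0.178 to 0.0179 (Grm3) and -0.187 to 0.0339 (Grm8) in control versus stress-high, -0.177 to 0.173 (Grm4) in control versus stress-low and -0.0351 to 0.0691 (Grm7) in stress-low versus stress-high. Leaving out each animal moved the same-animal r over -0.0612 to 0.473 (Grm2), -0.477 to 0.145 (Grm3), -0.0930 to 0.299 (Grm5) and -0.639 to 0.0159 (Grm8).

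Limits are the 3 animals per stress group, the 18 to 35 counts behind DG Grm8, and markers of neighboring tissue in BLA libraries. Labels do not give litters, and per the study's methods rats were housed and run in pairs within cohorts. The p-values treat the animals as independent, which could not be checked.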
